A study of Homo sapiens with 8 samples.

Results

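The 46 genes described here encode the subunits of the proteasome, its interferon-inducible variants, its activators, its inhibitor and its maturation factor. They were taken by symbol, as PSMA, PSMB, PSMC or PSMD followed by a number, PSME1 to PSME4, PSMF1, POMP and SEM1, and each was found once in every table among 60649 gene identifiers, 19960 of which matched a protein-coding gene. The libraries were made from polyA RNA of HCT116, a human colorectal cancer cell line, and of UF1hypo, a single clone of HCT116 that lacks exon 4 on one UHRF1 allele, where genome editing had put a selection cassette in its place that Cre later took out. UHRF1 is the protein that recruits the maintenance DNA methyltransferase to newly replicated DNA. Each line carried, as puromycin-selected lentiviral pools, a hairpin: shScr is the control and shUHRF1 targets UHRF1. The authors list 1 hairpin against UHRF1, so an effect of the hairpin or pool cannot be told apart from that of lower UHRF1. The 4 groups, HCT116 shScr, HCT116 shUHRF1, UF1hypo shScr and UF1hypo shUHRF1, had 2 libraries each. UF1hypo is 1 clone, so what sets it apart from HCT116 may belong to the clone or to the lost allele, and these cannot be told apart.

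The 20S core of the proteasome is a barrel of α rings (PSMA genes) around β rings (PSMB genes), and PSMB5, PSMB6 and PSMB7 carry its catalytic sites. The 19S cap (PSMC and PSMD genes) recognises ubiquitinated proteins, unfolds them with its ATPases and feeds them into the core. Interferon replaces the catalytic subunits in newly built cores: PSMB8 takes the place of PSMB5, PSMB9 that of PSMB6 and PSMB10 that of PSMB7, and PSME1 with PSME2 forms the activator PA28, which together shape the peptides presented on MHC class I.

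Sequencing depth, taken from coverage divided by FPKM, was between 5.42 and 7.84 aligned gigabases per library. The number of reads behind a single gene is not given, though its mean read depth per base is. UHRF1 itself had TPM values (the transcript share, scaled for gene length and library) of 87.5 and 98.4 under shScr and 31.7 and 32.7 with shUHRF1 in HCT116, and 47.3 and 50.6 with shScr and 34.1 and 21.1 with shUHRF1 in UF1hypo, so the groups of each line did not overlap in the labelled direction. Its log2 fold change was −1.498 ± 0.22 on knockdown in HCT116 (SE; limma, adjusted p = 0.0634) and −0.84 ± 0.22 in UF1hypo (limma, adjusted p = 0.0405). Tests were those of limma on log2(TPM + 1) over all 8 libraries. A gene was called at a Benjamini-Hochberg adjusted p below 0.05 with an absolute log2 fold change over 1, and counts at an adjusted p below 0.05 with any fold change are given beside it. The sources do not say whether replicates were separate cultures, so p-values measure only the spread between these libraries. A lower TPM in a pool can mean fewer cells that express the gene or less RNA per cell, and these cannot be told apart. In UF1hypo shUHRF1 the 2 replicates stood apart from each other along the GC content of the transcripts, which is described with the values it touches. The summed TPM of 9 colon epithelial markers lay between 4354 and 12710, led by KRT8, while 3 of the 9, VIL1, CDH17 and LGALS4, lay below 1 in every library.

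The starts of the inducible genes are shown because, apart from PSMB7, every member that passed the test in a comparison was 1 of these 5. Of the 5, PSMB10 did not pass in any. The sequences are from RefSeq (GRCh38.p14), which gave an entry for 41 members, and they run from 85 bases before the start site to 15 bases from it, 5′ to 3′ on the gene's strand. Capitals mark GAAANNGAA, the core of the element bound by interferon regulatory factors, on either strand, and TTCNNNGAA, the palindrome bound by STAT dimers.
PSMB8, chr6:32844033-32844132, minus strand: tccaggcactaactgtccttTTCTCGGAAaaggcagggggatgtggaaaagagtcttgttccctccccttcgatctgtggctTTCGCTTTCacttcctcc
PSMB10, chr16:67936836-67936935, minus strand: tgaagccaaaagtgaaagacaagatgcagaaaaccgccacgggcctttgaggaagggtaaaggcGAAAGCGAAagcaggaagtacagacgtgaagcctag
PSME1, chr14:24136109-24136208, plus strand: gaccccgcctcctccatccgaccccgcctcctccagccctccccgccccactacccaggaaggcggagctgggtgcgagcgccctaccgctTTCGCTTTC
PSME2, chr14:24146596-24146695, minus strand: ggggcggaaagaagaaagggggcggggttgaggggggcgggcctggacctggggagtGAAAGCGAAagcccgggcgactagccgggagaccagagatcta
PSMB9, chr6:32854107-32854206, plus strand: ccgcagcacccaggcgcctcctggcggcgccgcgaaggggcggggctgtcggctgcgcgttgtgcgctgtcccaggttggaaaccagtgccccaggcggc
In PSMB8 the interferon core began 3 bases before the start site and the STAT palindrome 65 bases before it. The interferon core began 21 bases before the start of PSMB10, 28 bases before that of PSME2 and 6 bases past the start base of PSME1, and neither motif lay in the printed stretch of PSMB9. In windows of 300 bases, 250 before the start site and 50 from it, GAAANNGAA was found in 4 of the 5 inducible members, in 3 of the 36 other members with an entry (8.33%) and in 8.11% of all 35116 RefSeq promoter windows. The 3 were POMP, PSMB4 and PSMC2. TTCNNNGAA was found in 1 of the 5 (PSMB8), in 6 of the 36 (16.7%) and in 7.66% of all windows. TGACNNNGC, the core of the antioxidant response element bound by NFE2L1 and NFE2L2, was in 3 of the 5 (PSMB9, PSME1 and PSME2), 8 of the 36 (22.2%) and 13.3% of all windows, and CCAAT was in 1 of the 5 (PSMB9), 16 of the 36 (44.4%) and 34.6% of all windows. CG dinucleotides are the sites that UHRF1 helps to keep methylated. Their median number per window was 17 in the inducible members, 22 in the other members and 14 over all windows. The number was 7 in PSMB10, 15 in PSMB8, 17 in PSME2, 26 in PSMB9 and 31 in PSME1. A match of letters is a description and not a bound site. DNA methylation was not analysed here.

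Of the 46 members, 44 passed the filter of a TPM over 1 in at least 1 library in every comparison. The 2 that did not are the tissue-restricted subunits, PSMA8 of the testis and PSMB11 of the thymic cortex, which were listed at 0 in 7 of 8 libraries each and reached at most 0.350 and 0.150. The summed TPM of all members outside the inducible 5 lay between 8455 and 9935 in the 8 libraries. The inducible 5 summed to 291 and 326 with shScr and 363 and 378 with shUHRF1 in HCT116, and 748 and 748 with shScr and 1324 and 1227 with shUHRF1 in UF1hypo. The first sum stayed of like size, but on knockdown it was lower in HCT116 (8455 and 8557, against 9259 and 9631). In UF1hypo it was higher on knockdown (9857 and 9935, against 9177 and 9259). The second sum was higher from group to group with no overlap. The coefficient of variation over the 8 libraries had a median of 47.5% among the inducible 5 and of 14.3% among the other 39 tested members, against 25.4% over all 13781 tested genes and 19.6% over the 5191 with a mean TPM above 30.

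**Figure D1:**
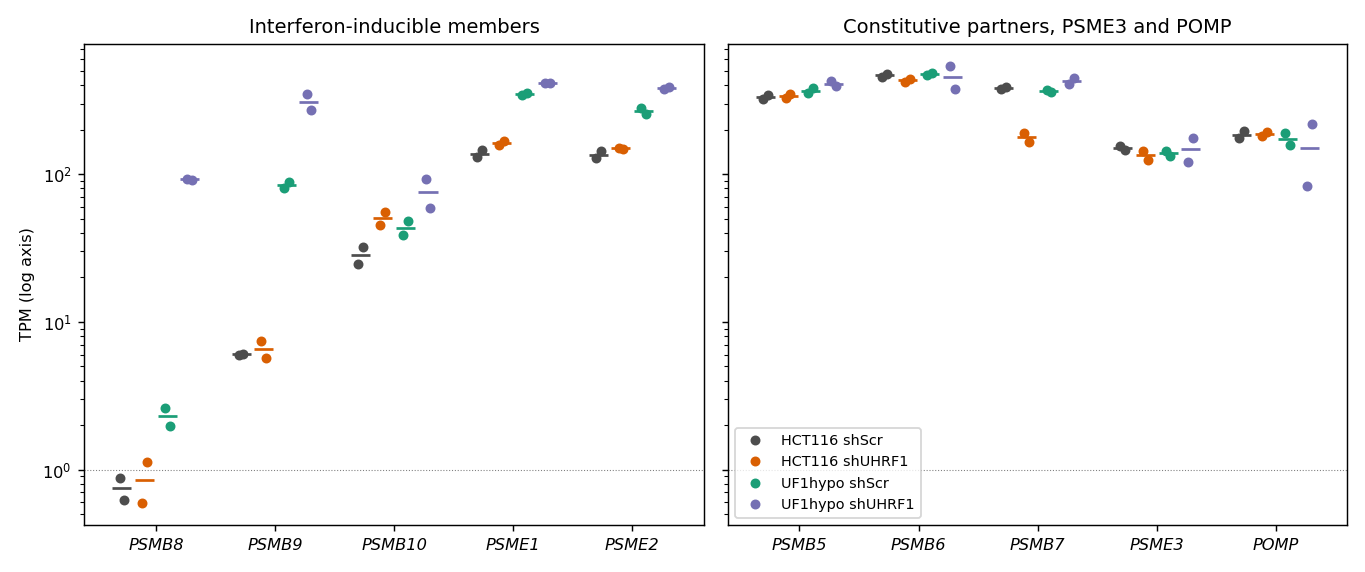
TPM on a log axis of the 5 interferon-inducible members (left) and of PSMB5, PSMB6, PSMB7, PSME3 and POMP (right), by group. Each point is 1 library, short lines are the means of 2 libraries, and the dotted line marks a TPM of 1. PSMB8 lies near 1 in both HCT116 groups and near 92 in UF1hypo shUHRF1, and PSMB7 lies lower in both HCT116 shUHRF1 libraries than in the other 6.

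PSMB8 (ENSG00000204264.12; chromosome 6, 32840717 to 32844679, minus strand), the inducible subunit with chymotrypsin-like activity, was close to the filter in 3 groups and abundant in the fourth. Its TPM was 0.875 and 0.618 with shScr and 0.593 and 1.12 with shUHRF1 in HCT116, and 2.63 and 1.97 with shScr and 93.0 and 91.9 with shUHRF1 in UF1hypo. The HCT116 groups overlapped, both UF1hypo shScr libraries lay above them, and the UF1hypo shUHRF1 libraries lay far above all others. Knockdown in UF1hypo raised PSMB8 by 4.83 ± 0.23 on the log2 scale (SE; limma, adjusted p = 7.605e-06), a ratio of mean TPM of 40.2. In HCT116 the log2 fold change was 0.08 ± 0.23 (limma, adjusted p = 1.0), with a 95% interval from −0.45 to 0.60. Since the level there is near 1, a fold change on log2(TPM + 1) understates any relative change. In HCT116 only 1 library, at 1.12, brought PSMB8 past the filter. The mean read depth per base of PSMB8 was between 0.425 and 0.776 in the HCT116 libraries. UF1hypo shScr lay 0.91 ± 0.23 above HCT116 shScr without passing the test (limma, adjusted p = 0.0617), which it did in 4 of 15 alternatives.

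PSMB8 shares exon bases with its neighbours, and whether the libraries kept strand is not given in the sources used here. Of its 3480 annotated exon bases, 602 (17.3%) overlap PSMB8-AS1 and 139 overlap exons of PSMB9, both on the opposite strand. PSMB8-AS1 had a TPM between 0.151 and 0.462 in the first 3 groups and of 3.82 and 3.95 in UF1hypo shUHRF1. In UF1hypo shUHRF1 both were highest, with PSMB8-AS1 far below PSMB8, and its part in the result was not tested.

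PSMB9 (ENSG00000240065.8; chromosome 6, 32844136 to 32859851, plus strand), the inducible subunit that replaces PSMB6, was already higher in the clone that carried the control hairpin. Its canonical start site lies 488 bases from that of TAP1, the peptide transporter gene that is read in the opposite direction, and 10145 bases from that of PSMB8. Its TPM was 5.998 and 6.032 with shScr and 7.40 and 5.73 with shUHRF1 in HCT116, and 80.6 and 88.0 with shScr and 347 and 273 with shUHRF1 in UF1hypo. The HCT116 groups overlapped and the UF1hypo groups did not. In the HCT116 libraries the mean read depth per base of PSMB9 was low, between 0.978 and 1.79. UF1hypo shScr was higher than HCT116 shScr by 3.60 ± 0.19 (limma, adjusted p = 4.535e-05), a ratio of mean TPM of 14.0. Knockdown in UF1hypo added 1.86 ± 0.19 (limma, adjusted p = 0.000519), a ratio of 3.67, and knockdown in HCT116 gave 0.10 ± 0.19 (limma, adjusted p = 1.0; 95% interval −0.34 to 0.54). The UF1hypo shScr libraries are the control in the knockdown of UF1hypo and the test group in the comparison of the shScr groups, so these changes share them.

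PSMB10 (ENSG00000205220.12; chromosome 16, 67934506 to 67936864, minus strand), the inducible subunit that replaces PSMB7, had the smallest log2 fold changes of the inducible catalytic subunits in UF1hypo, on knockdown and against HCT116 shScr, and the largest of them on knockdown in HCT116. Its TPM was 24.83 and 31.97 with shScr and 45.2 and 55.5 with shUHRF1 in HCT116, and 39.0 and 48.0 with shScr and 92.4 and 58.7 with shUHRF1 in UF1hypo. In each line both knockdown libraries lay above both controls. The log2 fold changes were 0.81 ± 0.25 in HCT116 (limma, adjusted p = 0.448) and 0.75 ± 0.25 in UF1hypo (limma, adjusted p = 0.0860), and neither passed the test. Leaving out 1 library gave 0.633 to 0.985 in HCT116 and 0.431 to 1.077 in UF1hypo. An adjusted p below 0.05 was reached in 3 of 15 alternatives in HCT116 and in 1 of 15 in UF1hypo. UF1hypo shScr against HCT116 shScr gave 0.60 ± 0.25 (limma, adjusted p = 0.250). The gap between the UF1hypo shUHRF1 replicates was 0.65 on the log2 scale, and PSMB10 has the highest GC content of all tested members, 61.7%. Of its 1626 exon bases 640 (39.4%) are shared with the locus ENSG00000261884 on the same strand, whose TPM lay between 4.30 and 8.92, so reads could be divided between them and the PSMB10 values are uncertain to that extent.

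PSME1 (ENSG00000092010.15; chromosome 14, 24136163 to 24138967, plus strand) and PSME2 (ENSG00000100911.16; chromosome 14, 24143362 to 24147570, minus strand) encode the α and β subunits of PA28 and are neighbours. The TPM of PSME1 was 131 and 145 with shScr and 158 and 168 with shUHRF1 in HCT116, and 345 and 356 with shScr and 415 and 411 with shUHRF1 in UF1hypo. That of PSME2 was 128 and 143, 152 and 147, 280 and 255, and 378 and 392 in the same groups. For both genes the order of the groups was the same and no 2 groups overlapped. UF1hypo shScr was higher than HCT116 shScr by 1.34 ± 0.13 for PSME1 (limma, adjusted p = 0.000859) and by 0.98 ± 0.13 for PSME2 (limma, adjusted p = 0.00494), which is just under the fold of a call and held in 11 of 15 alternatives. On knockdown in UF1hypo, PSME2 rose by a further 0.52 ± 0.13 (limma, adjusted p = 0.0352), which held in 7 of 15 alternatives. PSME1 gave 0.24 ± 0.13 there (limma, adjusted p = 0.274). In HCT116 the changes were 0.24 ± 0.13 for PSME1 (limma, adjusted p = 0.856) and 0.14 ± 0.13 for PSME2 (limma, adjusted p = 1.0).

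Of the catalytic subunits that these replace, PSMB5 and PSMB6 did not pass the test in any comparison in limma. PSMB5 (chromosome 14, 23016543 to 23035230, minus strand) had a TPM of 325 and 346, 328 and 347, 354 and 382, and 426 and 393 in the groups in the order of the opening. PSMB6 (chromosome 17, 4796144 to 4798502, plus strand) had 457 and 475, 421 and 442, 471 and 485, and 541 and 375. The UF1hypo libraries of PSMB5 lay above those of HCT116, and its groups in UF1hypo did not overlap, while those of PSMB6 did. The largest log2 fold change of a knockdown was 0.15 ± 0.13 for PSMB5 in UF1hypo (limma, adjusted p = 0.478) and −0.11 ± 0.18 for PSMB6 in HCT116 (limma, adjusted p = 1.0).

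PSMB7 (ENSG00000136930.13; chromosome 9, 124353465 to 124415444, minus strand), the constitutive subunit with trypsin-like activity, fell on knockdown in HCT116. Its TPM was 379 and 390 with shScr and 190 and 166 with shUHRF1 in HCT116, and 371 and 361 with shScr and 410 and 451 with shUHRF1 in UF1hypo. Both HCT116 shUHRF1 libraries lay below all 6 others, which ranged from 361 to 451. PSMB7 fell by 1.11 ± 0.13 on the log2 scale in HCT116 (limma, adjusted p = 0.0385), and its change was 0.23 ± 0.13 in UF1hypo (limma, adjusted p = 0.296). The HCT116 call was lost when any 1 of the 4 libraries of that comparison was left out. It was lost as well with no TPM filter, with all annotated genes, with median-ratio scaling, without a variance trend and with the replicate block, so 6 of 15 alternatives kept an adjusted p below 0.05 (limma, 0.000109 to 0.475), while the log2 fold change stayed between −1.21 and −1.01. Over all tested genes, 10 were called in the main fit and 0, 3, 2, 5 and 1 in the settings just named, in turn. Calls over all genes also fell when a library was left out. None of the 9 tested genes looked at around PSMB7 on chromosome 9 passed the test in HCT116. NEK6, whose end lies next to PSMB7, had −0.14 and RPL35 0.25 (limma, adjusted p = 1.0 and 0.889).

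**Figure D2:**
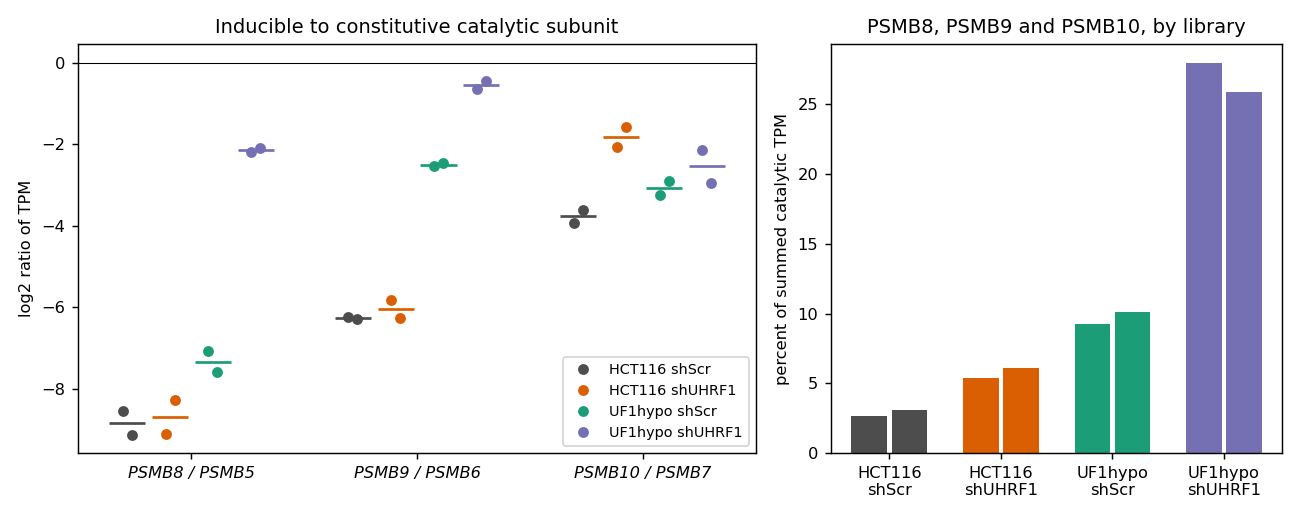
Left, log2 ratio of the TPM of each inducible catalytic subunit to that of the constitutive subunit it replaces, 1 point per library with the mean of 2 as a line. Right, PSMB8, PSMB9 and PSMB10 as a percent of the summed TPM of all 6 catalytic subunits, 1 bar per library. PSMB9 to PSMB6 reaches −0.55 in UF1hypo shUHRF1, still below 0, and the share rises from about 3% to over 25%.

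Set against their partners, the inducible subunits remained the minority in every library. The mean log2 ratio of PSMB8 to PSMB5 was −8.83 ± 0.42 (SD, n = 2) with shScr and −8.70 ± 0.59 with shUHRF1 in HCT116, and −7.33 ± 0.37 with shScr and −2.15 ± 0.07 with shUHRF1 in UF1hypo. That of PSMB9 to PSMB6 was −6.28 ± 0.03, −6.05 ± 0.31, −2.50 ± 0.06 and −0.55 ± 0.13. The ratio of PSMB10 to PSMB7 behaved differently, with −3.77 ± 0.23, −1.83 ± 0.35, −3.08 ± 0.24 and −2.55 ± 0.56, so that its highest group mean was that of HCT116 shUHRF1, the group with the lowest PSMB7. PSMB10 itself was highest in UF1hypo shUHRF1. These are ratios of RNA levels and say nothing of assembled particles. PSMB8, PSMB9 and PSMB10 together made up 2.66% and 3.09% of the summed catalytic TPM of HCT116 with shScr, 5.36% and 6.13% with shUHRF1, 9.28% and 10.1% in UF1hypo with shScr and 27.9% and 25.8% there with shUHRF1. For a single value such as these, 2 libraries against 2 cannot give an exact two-sided permutation p below 0.33, so no p is given.

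**Figure D3:**
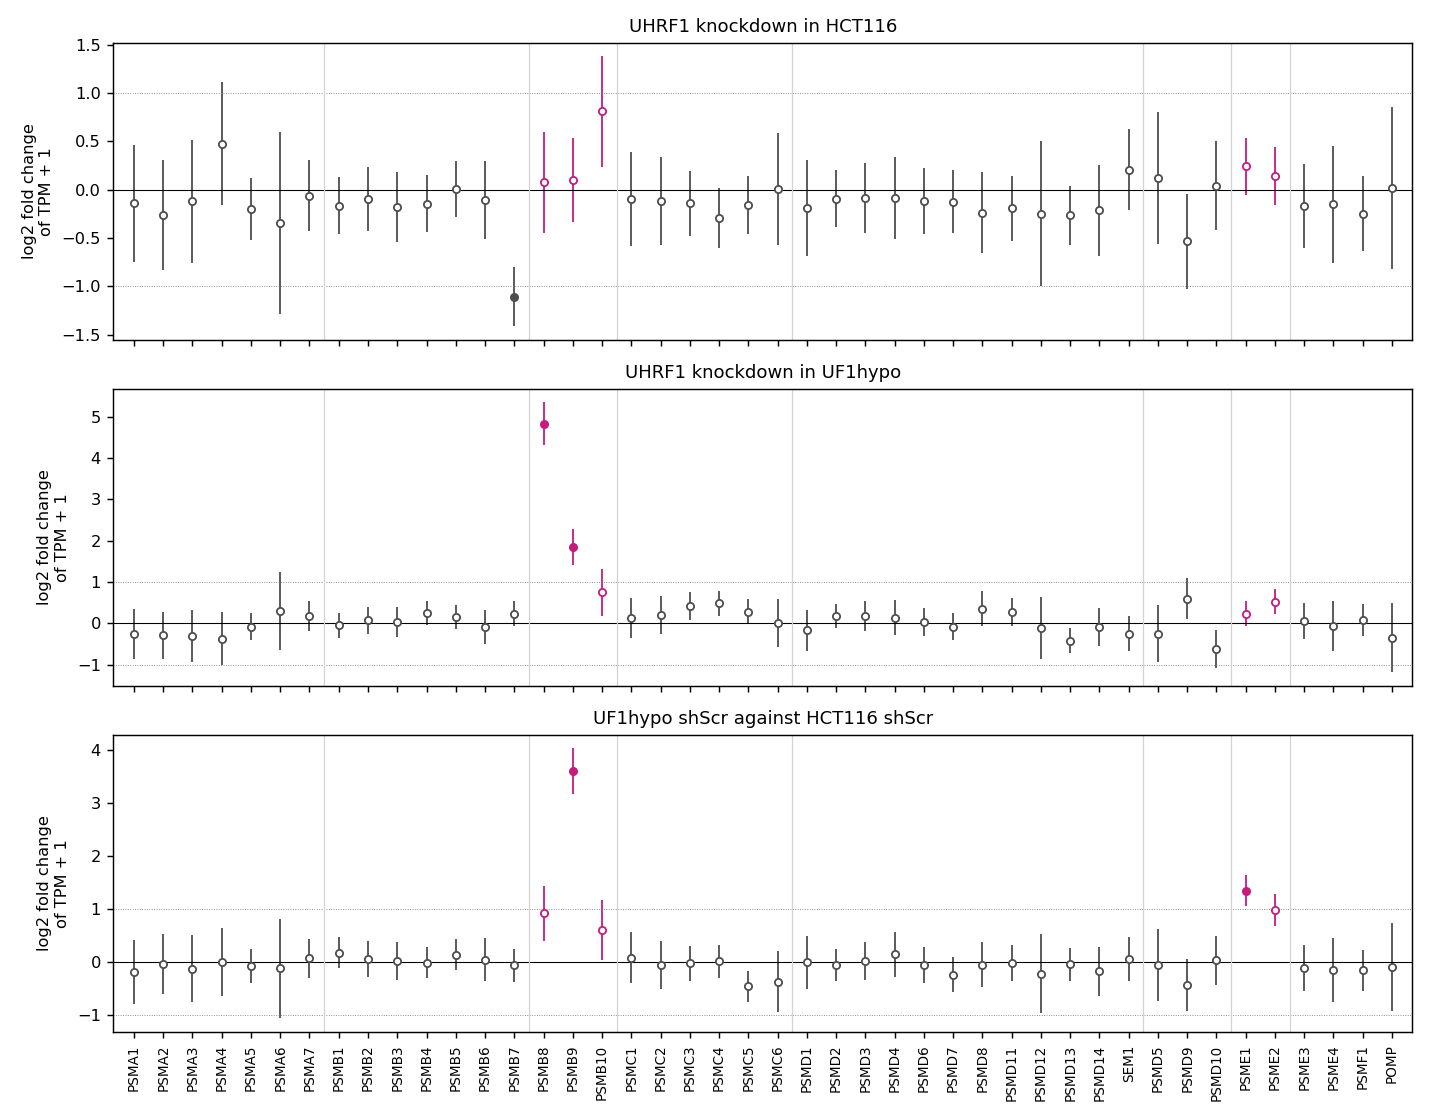
Log2 fold change of TPM + 1 for the 44 tested members in 3 comparisons, ordered by role, with the 95% interval of limma. Pink marks the inducible 5, filled points are called, and dotted lines mark an absolute log2 fold change of 1. Away from the inducible genes, PSMB7 in HCT116 is the only filled point.

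Counted over all 44 tested members, knockdown in HCT116 called 1 lower (PSMB7) and 0 higher, with the same counts at any fold change and 3 members at an unadjusted p below 0.05 (6.82%, against 6.58% of all tested genes). At any fold change the count rose to 4 with the libraries of the comparison alone (PSMA4 and PSMB10 higher, PSMB7 and PSMD9 lower), where 515 genes passed in all against 10, to 3 with library weights (494 genes) and to 2 with GC correction (298 genes). Over all 12704 tested genes limma called 0.0236% lower and 0.0551% higher, by either rule. Knockdown in UF1hypo called 2 members higher (PSMB8 and PSMB9) and 0 lower, against 7.39% and 1.14% of 13620 genes, and 9 members had an unadjusted p below 0.05 (20.5%, against 27.4%). At any fold change 3 were higher (PSME2 added) and 0 lower, against 10.4% and 2.86%. The share of members called was thus no larger than that of all genes. UF1hypo shScr against HCT116 shScr called 2 higher (PSMB9 and PSME1) and 0 lower, against 2.58% and 0.957% of 12856 genes, and at any fold change 3 higher (PSME2 added) and 0 lower, against 3.46% and 1.42%. There 6 members had an unadjusted p below 0.05 (13.6%, against 18.4%). With the libraries of the comparison alone, or with library weights, 7 passed at any fold change, the inducible 5 higher and PSMC5 and PSMC6 lower, while 3077 and 3526 genes passed in all against 628. Every member called higher in these comparisons was 1 of the inducible 5. The median log2 fold change of the 44 members was −0.12 on knockdown in HCT116, 0.08 on knockdown in UF1hypo, 0.16 for the difference between them and −0.04 between the shScr groups, beside −0.03, 0.04, 0.08 and −0.05 over all tested genes.

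The knockdown effect itself differed between the lines for 3 members. The effect in UF1hypo minus that in HCT116 was 4.76 ± 0.32 for PSMB8 (limma, adjusted p = 0.000196), 1.76 ± 0.27 for PSMB9 (limma, adjusted p = 0.00915) and 1.34 ± 0.19 for PSMB7 (limma, adjusted p = 0.00685). These 3 were higher and 0 lower by either rule, against 4.54% and 0.559% of 13781 genes called and 4.6% and 0.624% at any fold change. The difference for PSMB7 comes with a fall in HCT116, whereas those for PSMB8 and PSMB9 come with a rise in UF1hypo. For PSMB10 the difference was −0.05 ± 0.35 (95% interval −0.86 to 0.76) and for PSME1 −0.01 ± 0.18 (−0.42 to 0.41), and both intervals hold differences of either sign. Over the 18 alternatives the adjusted p stayed below 0.05 in 18 for PSMB8, in 14 for PSMB9 (limma, up to 0.0663) and in 15 for PSMB7 (limma, up to 0.0557). Without HCT116 shScr replicate 1, HCT116 shScr replicate 2 or HCT116 shUHRF1 replicate 2, PSMB8 was the only member called for the difference. In each of these settings the share of all tested genes called was lower too.

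None of the other members of the 20S core passed the test in any comparison in limma. Among the 7 α subunits the mean TPM over the libraries ran from 88.3 for PSMA5 to 725 for PSMA7, and among the constitutive β subunits from 113 for PSMB2 to 668 for PSMB4. No α subunit reached an unadjusted p below 0.05 in any comparison (0 in each). The median log2 fold change of the α ring was −0.14 on knockdown in HCT116, −0.26 on knockdown in UF1hypo and −0.09 between the shScr groups, against −0.03, 0.04 and −0.05 over all tested genes. For the constitutive β ring these medians were −0.14, 0.07 and 0.04. PSMA4 was the α subunit with the widest contrast, with 180 and 187 with shScr and 258 and 254 with shUHRF1 in HCT116, and 177 and 189 with shScr and 98.8 and 202 with shUHRF1 in UF1hypo. Its difference between the knockdown effects was −0.84 ± 0.40 (limma, adjusted p = 0.309), the lowest of the members, and ran from −1.36 to −0.33 over the alternatives.

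PSMA6 varied most among the constitutive core genes, with a coefficient of variation of 32.1%. Its TPM was 223 and 253, 130 and 268, 288 and 164, and 195 and 370 in the order of groups above, so replicates of 3 groups differed more than any 2 group means. It shares 919 of its 6506 exon bases (14.1%) with the same-strand locus ENSG00000258790, whose TPM was 18.0 and 17.2, 43.2 and 5.33, 14.5 and 42.0, and 30.8 and 12.5. In each of the 3 uneven groups the library with less PSMA6 had more of the overlapping locus. The sum of both loci was uneven too, at 173 and 273, 303 and 206, and 226 and 383 in these 3 groups.

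POMP (chromosome 13, 28659104 to 28678959, plus strand), the chaperone that completes the 20S core, had a TPM of 175 and 195, 182 and 192, 189 and 158, and 83.7 and 219 in the same order. The group means did not differ beyond this spread, with a log2 fold change of −0.34 ± 0.37 on knockdown in UF1hypo (limma, adjusted p = 0.585).

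In the 19S cap, the base ATPases ran from a mean TPM of 9.82 for PSMC1 to 374 for PSMC5. The value of PSMC1 is doubtful, since 4667 of its 6129 exon bases (76.1%) are shared with NRDE2 on the opposite strand, itself listed between 6.31 and 9.70. On knockdown in UF1hypo the median log2 fold change of the 6 ATPases was 0.24, and 2 had an unadjusted p below 0.05. None passed the test there in limma, and PSMC4, with 246 and 266 in UF1hypo with shScr and 386 and 332 there with shUHRF1, came closest (0.48 ± 0.14; limma, adjusted p = 0.0503). PSMC5 had the lowest log2 fold change of all members between the shScr groups, −0.47 ± 0.13 (limma, adjusted p = 0.0910), with 413 and 444 in HCT116 shScr and 299 and 320 in UF1hypo shScr. The 12 non-ATPase subunits lay between a mean TPM of 84.3 for SEM1 and 434 for PSMD2, with medians of −0.16, −0.02 and −0.05 in the 3 comparisons. None passed the test in limma, with 0, 1 and 0 at an unadjusted p below 0.05.

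None of the 3 chaperones that assemble the base of the cap passed the test in any comparison in limma. PSMD9 had 65.7 and 69.4 with shScr and 48.9 and 43.9 with shUHRF1 in HCT116, and 39.1 and 62.0 with shScr and 78.3 and 72.2 with shUHRF1 in UF1hypo. Its log2 fold change was −0.54 ± 0.22 in HCT116 (limma, adjusted p = 0.680) and 0.60 ± 0.22 in UF1hypo (limma, adjusted p = 0.110), and the difference between them, 1.14 ± 0.31, did not pass the test (limma, adjusted p = 0.0803). PSMD10, also known as gankyrin, had 75.4 and 79.9, 77.8 and 81.8, 82.3 and 76.2, and 41.3 and 62.7. Both UF1hypo shUHRF1 libraries were its lowest, and the change of −0.63 ± 0.20 in UF1hypo was the lowest of the members there (limma, adjusted p = 0.0779). That change ran from −0.923 to −0.331 when 1 library was left out. POMP reached −1.033 without UF1hypo shUHRF1 replicate 2, so the rank depends on the libraries used. PSMD5 lay between 20.67 and 43.96.

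The activators that interferon does not induce and the inhibitor did not pass the test in any comparison in limma. PSME3 (PA28γ, the nuclear relative of PSME1 and PSME2; chromosome 17, 42824385 to 42843760, plus strand) had 156 and 146, 144 and 125, 144 and 134, and 121 and 175. Its knockdown changes were −0.17 ± 0.19 in HCT116 (limma, adjusted p = 1.0) and 0.07 ± 0.19 in UF1hypo (limma, adjusted p = 0.848). PSME4, the nuclear activator PA200, lay between 25.9 and 47.7, and PSMF1, the inhibitor PI31, between 34.5 and 45.3. Over all 39 tested members outside the inducible 5, the absolute log2 fold change was under 0.5 in 37 on knockdown in HCT116, in 37 on knockdown in UF1hypo, in 39 between the shScr groups and in 31 for the difference between the knockdown effects, against 91.9%, 69.6%, 78.3% and 66.7% of all tested genes. For that difference 8 of the 39 had an unadjusted p below 0.05 (20.5%, against 18.5% of all genes), 3 of them ATPases of the base.

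**Figure D4:**
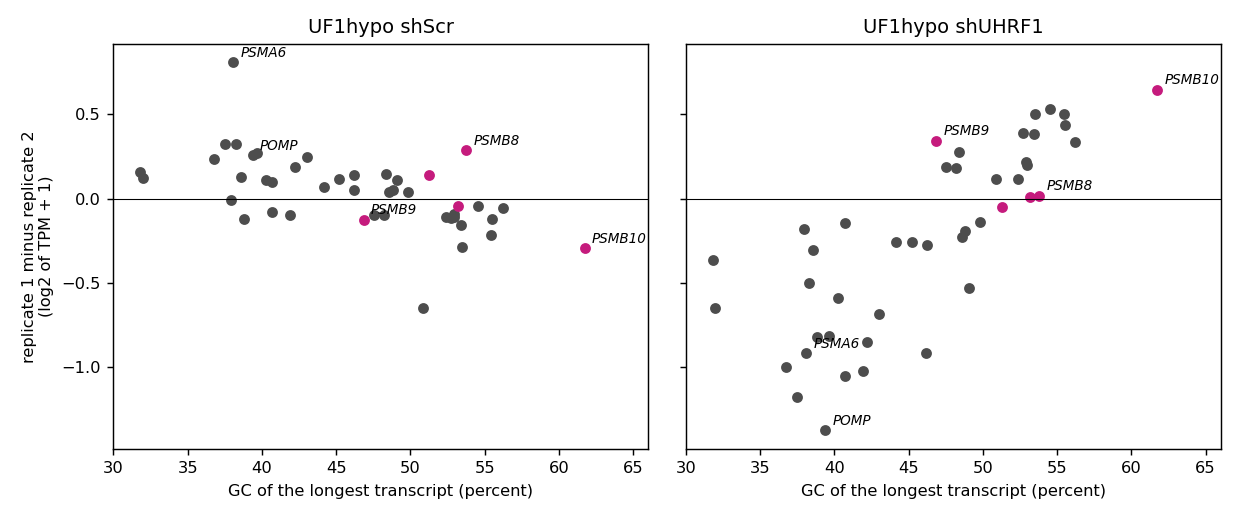
Replicate 1 minus replicate 2, as the difference in log2(TPM + 1), for the 44 tested members against the GC content of their longest transcript, in UF1hypo shScr (left) and UF1hypo shUHRF1 (right). Pink marks the inducible 5. In UF1hypo shUHRF1 the members with low GC lie below 0, POMP lowest at −1.38, and PSMB10 lies highest at 0.65.

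Against a median absolute gap between replicates of 0.078 to 0.122 over the 44 members in the other groups, the gap was 0.374 in UF1hypo shUHRF1. Replicate 1 minus replicate 2 followed GC content with a Spearman's rho of 0.82 over the 44 members and of 0.80 over all 13781 tested genes, which share the same libraries and are no replicates. The gap exceeded 1 on the log2 scale in 4 of the 44 members (POMP, PSMD12, PSMD5 and PSMA4), all lower in replicate 1, against 0 in HCT116 shScr, 1 in HCT116 shUHRF1 and 0 in UF1hypo shScr. In UF1hypo shScr rho was −0.61 over the members. The gap was 0.02 for PSMB8, 0.34 for PSMB9, 0.65 for PSMB10, 0.01 for PSME1 and −0.05 for PSME2. In the same order, the changes of these genes on knockdown in UF1hypo were 4.83, 1.86, 0.75, 0.24 and 0.52. For PSMB10 the gap was thus close to the change itself. When UF1hypo shUHRF1 replicate 2 was left out, 4 members were called on knockdown in UF1hypo (PSMB8, PSMB9 and PSMB10 higher, POMP lower) and 25 passed at any fold change, among them PSMC4, PSMD10 and PSMD13. Over all tested genes 16.8% were called in that setting and 47.5% passed at any fold change. Without replicate 1, PSMB8 and PSMB9 were called and 6 members passed at any fold change, PSMC4 and PSMD11 among them, against 8.36% and 19.2% of all genes. After correction for GC content 7 members passed at any fold change in UF1hypo, with PSMC4 and PSMD11 higher and PSMD10 and PSMD13 lower besides PSMB8, PSMB9 and PSME2, while the share of all tested genes went from 13.3% to 28.7%. For the difference 8 passed after this correction, with PSMC4, PSMD11 and PSMD9 higher and PSMA4 and PSMD10 lower besides PSMB7, PSMB8 and PSMB9. Over all tested genes 14.9% passed for the difference with the correction and 5.22% without it. PSMB8 and PSMB9 were called in UF1hypo under every alternative run.

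Other genes of the pathway were counted from lists taken with the earlier results known. In the list of 20 genes of class I peptide processing and its inducers, knockdown in HCT116 called 0, with 1 at an unadjusted p below 0.05 in limma. Knockdown in UF1hypo called 4 higher (ERAP1, HLA-B, NLRC5 and TAP1), 9 at any fold change, against 7.39% and 10.4% of all tested genes, and UF1hypo shScr against HCT116 shScr called 7 higher (TAP1, TAPBP, HLA-B and NLRC5 among them), 11 at any fold change, against 2.58% and 3.46%, with none lower in either. For the difference between the knockdown effects 5 were called higher (ERAP1, HLA-B, NLRC5, TAP1 and TAP2), against 4.54%, and none lower. The median log2 fold change of the list was −0.04, 0.68, 0.90 and 0.66 in these comparisons in turn, beside −0.03, 0.04, −0.05 and 0.08 over all tested genes. TAP1, which shares its start region with PSMB9, had TPM values of 50.4 and 48.3 under shScr and 51.9 and 48.5 with shUHRF1 in HCT116, and 121 and 130 with shScr and 344 and 291 with shUHRF1 in UF1hypo. Its change on knockdown in UF1hypo was 1.32 (limma, adjusted p = 0.000806) and between the shScr groups 1.33 (limma, adjusted p = 0.00199), so TAP1 rose in the same comparisons as PSMB9. NLRC5, the transactivator of MHC class I genes, had 6.22 and 5.80, 3.90 and 4.79, 13.0 and 15.5, and 71.2 and 47.0.

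None of the 12 proteasome-associated genes outside the rule, such as the PSMG assembly chaperones and the deubiquitinase USP14, was called in any comparison in limma, with 0 at an unadjusted p below 0.05 on knockdown in HCT116, 1 on knockdown in UF1hypo, 0 for the difference and 1 between the shScr groups. Their median log2 fold changes were −0.002, −0.064, 0.020 and −0.035 in this order. The same held for the 6 ubiquitin genes, with 0, 2, 0 and 0 at an unadjusted p below 0.05 and medians of −0.049, 0.009, −0.069 and 0.086. Of all tested genes, 6.58%, 27.4%, 18.5% and 18.4% had an unadjusted p below 0.05 in this order. Of 6 regulators of proteasome transcription, NFE2L1, the factor that raises proteasome genes when the proteasome is impaired, was higher at any fold change on knockdown in UF1hypo, by 0.58 ± 0.15 (limma, adjusted p = 0.0347), with 140 and 149 in UF1hypo with shScr and 239 and 196 there with shUHRF1. The other 5 did not pass there, none of the 6 was called elsewhere (0 at an unadjusted p below 0.05 in the other comparisons), and the medians of the list were −0.107, 0.004, 0.149 and −0.137. NFE2L2, the relative of NFE2L1, had 80.2 and 66.7 against 54.8 and 91.1.

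Leukocytes express the inducible subunits without a stimulus, so their markers were set beside these values. The summed TPM of 15 leukocyte markers was 14.8 and 17.4 with shScr and 9.39 and 10.7 with shUHRF1 in HCT116, and 48.5 and 48.7 with shScr and 87.6 and 120 with shUHRF1 in UF1hypo. Most of it was CD68, a lysosomal protein gene that epithelial lines also express, with 40.6 and 42.6 in UF1hypo with shScr and 107 and 77.7 there with shUHRF1. PTPRC, the pan-leukocyte marker, was listed at 0 in the first 3 groups and at 0.0561 and 0.0728 in UF1hypo shUHRF1, while CD2 and FCGR3A were listed at 0 in all libraries. CD3D had a TPM of 5.05 and 2.99 in UF1hypo shUHRF1 and was at or below 0.349 elsewhere. Both CD68 (1.11; limma, adjusted p = 0.00833) and CD3D (2.12; limma, adjusted p = 0.00165) were called higher on knockdown in UF1hypo. Between the shScr groups, where PSMB9, PSME1 and PSME2 were higher, CD68 (1.61; limma, adjusted p = 0.00355) and HLA-DRA (1.61; limma, adjusted p = 0.0171) were called higher in UF1hypo. Of the 15 markers, 14, 14, 11 and 10 lay below a TPM of 1 in the 4 groups in this order. The summed TPM of 7 fibroblast markers, led by COL1A1, was 38.3 and 66.2 in UF1hypo shUHRF1 and from 21.2 to 28.9 in the other 6 libraries, and COL1A1 gave 0.945 on knockdown in UF1hypo (limma, adjusted p = 0.0518). The summed TPM of the 9 epithelial markers went in the same order of groups as that of the inducible 5, from 4354 to 4408 with shScr and 5485 to 5604 with shUHRF1 in HCT116, and from 8812 to 9086 with shScr and 9857 to 12710 with shUHRF1 in UF1hypo. KRT8 (1.16; limma, adjusted p = 0.00659), KRT18 (1.14; limma, adjusted p = 0.00187) and KRT19 (1.02; limma, adjusted p = 0.00896) were called higher between the shScr groups. CDH1 was higher at any fold change on knockdown in UF1hypo, by 0.928 (limma, adjusted p = 0.00478). It was called for the difference between the knockdown effects (1.14; limma, adjusted p = 0.0195). CD68 (1.95; limma, adjusted p = 0.00777) and CD3D (1.90; limma, adjusted p = 0.0283) were called for that difference as well. EPCAM, of the same epithelial list, was not called in any comparison in limma, with log2 fold changes of −0.26 on knockdown in HCT116, −0.54 on knockdown in UF1hypo and −0.11 between the shScr groups. The summed TPM of 4 endothelial markers lay between 0.175 and 0.626. The part of these changes in the result was not tested.

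Pseudogenes of proteasome genes could take reads from their parents. The tables listed 42 of them by symbol, and the highest TPM of any of them in any library was 2.21.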

How the data were processed

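RNA-seq of polyA RNA was analysed in 8 libraries, with 2 in each of the 4 groups that the titles of the libraries give. Before deposit the authors used Fastp for trimming, HISAT2 2.0.4 for alignment (GRCh38) and StringTie 2.1.4 for quantification, with versions from the submitters' processing notes. The annotation release and strandedness are not given in the sources used here, and the harvest day of the pools was not assigned to these libraries. The deposited coverage signal is the mean read depth per base. The FPKM values deposited by the authors are scaled for length and aligned reads. The TPM values deposited by the authors are scaled for length and to 1000000 per library.

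Identifiers were matched to GENCODE version 44 (60507 of 60649). Protein-coding genes that exceeded a TPM of 1 anywhere entered 1 fit in limma 3.58.1 (R 4.3.3) on log2(TPM + 1) with a variance trend and 4 residual degrees of freedom. Adjustment was made per comparison over genes above 1 in its own libraries. The fit was tested on simulated data. DESeq2, used by the authors, needs counts and was not run. The tables hold no counts, so counting error is unknown. Python 3.11.15, pandas 2.3.3, SciPy 1.17.1 and matplotlib 3.10.9 served the rest.

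The members and lists were chosen with earlier results of these data known. Named in full were the inducible 5, PSMB5, PSMB6, PSMB7, PSME3, POMP, members at an adjusted p below 0.05 and those with the highest and lowest change per comparison. PSMA6, PSMC4, PSMD9, PSMC1 and the other genes were named after their values were seen. The alternatives tried were no TPM filter, a pseudocount of 0.1, all annotated genes, a comparison's libraries alone, FPKM, median-ratio scaling, no variance trend, the largest record of each gene, the replicate number as a block, library weights, correction for GC in 10 bins, and each library left out.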

Additional observations from a re-analysis of the deposited data

Results flagged for a closer look

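The effect of the knockdown was unequal between the lines for 3 members by the test of the difference itself in limma. The difference, UF1hypo minus HCT116 on the log2 scale, was 4.76 for PSMB8, 1.76 for PSMB9 and 1.34 for PSMB7. PSMB8 and PSMB9 rose in both UF1hypo shUHRF1 libraries and overlapped between the groups in HCT116, whereas PSMB7 was lower in both HCT116 shUHRF1 libraries and did not pass the test in UF1hypo. The replicates of UF1hypo shUHRF1 stood apart, and 2 libraries alone cannot show which of them is outlying. For POMP, PSMD12, PSMD5 and PSMA4, the members with the widest gap, replicate 1 (TPM 83.71, 50.66, 20.67 and 98.78) lay below the other groups. The lowest values of those groups were 157.6, 74.35, 34.74 and 176.6. Replicate 2 (219.1, 115.8, 43.96 and 202.4) lay above those groups for POMP, PSMD12 and PSMD5, and within their range for PSMA4. For PSMB6, replicate 2 was the lowest library (374.5) and replicate 1 the highest (541.3). Which replicate is outlying was not tested.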

How the results depend on the processing

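The calls of PSMB8 and PSMB9 on knockdown in UF1hypo and of PSMB9 and PSME1 between the shScr groups held under every alternative run, and PSMB8 was called for the difference in all of them. Where leaving out a library left 1 in its group, the spread came from the other groups and the lone library was assumed to vary like them. Knockdown in HCT116 called 0 members instead of 1 with no TPM filter, with all annotated genes and with median-ratio scaling. It did so as well without a variance trend and with the replicate number as a block. Over all tested genes 10 were called in the main fit, and 0, 3, 2, 5 and 1 in these settings in turn. The call was also lost without any 1 of the 4 libraries, where calls over all tested genes fell too. The cause was not tested. On knockdown in UF1hypo leaving out a library gave 2 to 4, with 4 without UF1hypo shUHRF1 replicate 2 (16.8% of all tested genes called, against 8.53%), and for the difference 1 to 6, with 6 without that library (15.7%, against 5.09%) and 1 without HCT116 shScr replicate 1 or 2 or HCT116 shUHRF1 replicate 2. In the settings that left 1 called for the difference, the share of all tested genes called was lower as well. The replicate block left 2 called in UF1hypo, 3 for the difference and 2 between the shScr groups. The deviations of same-numbered libraries correlated between −0.40 and 0.05, which does not settle whether the numbers pair the libraries. At any fold change the count ran from 0 to 4 in HCT116, 2 to 25 in UF1hypo, 1 to 17 for the difference and 2 to 7 between the shScr groups. The 25 and the 17 came without UF1hypo shUHRF1 replicate 2, where 47.5% and 30.9% of all tested genes passed.

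No value whose sign was turned by an alternative passed the test. Other ends of the ranges below did, as for POMP (−1.033), PSMA4 (−0.880) in UF1hypo without UF1hypo shUHRF1 replicate 2 and PSMB6 (−0.351) there without replicate 1. Under FPKM, PSMB5 in HCT116 was −0.005 and PSMB6 for the difference −0.023; under median-ratio scaling PSMB6 for the difference was −0.039 and PSMA4 between the shScr groups 0.048; under GC correction the difference was −0.007 for PSMB5 and −0.177 for PSMB6, and the shScr groups differed by 0.142 for POMP, 0.162 for PSMA4 and −0.040 for PSMB6. Leaving out 1 library gave, in HCT116, −0.061 to 0.096 for POMP, −0.033 to 0.055 for PSMB5, −0.030 to 0.281 for PSMB8, −0.060 to 0.261 for PSMB9 and −0.003 to 0.080 for PSMD10. The range of PSMB8 rests on 3 such fits, since without HCT116 shUHRF1 replicate 2 it did not pass the TPM filter. In UF1hypo leaving out 1 library gave −1.033 to 0.344 for POMP, −0.880 to 0.148 for PSMA4, −0.351 to 0.180 for PSMB6 and −0.197 to 0.334 for PSME3. For the difference it gave −1.051 to 0.327 for POMP, −0.377 to 0.269 for PSMB10, −0.240 to 0.291 for PSMB6, −0.079 to 0.067 for PSME1 and −0.029 to 0.502 for PSME3. Between the shScr groups it gave −0.229 to 0.027 for POMP, −0.056 to 0.040 for PSMA4 and −0.027 to 0.083 for PSMD10. The tables give no reads per gene, so values near a TPM of 1, as for PSMB8 in HCT116, carry an unknown counting error.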
